A study of Mus musculus with 4 samples.

Results

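The nuclei described here were heart fibroblast nuclei picked by a rule on 7 genes of activated fibroblasts, Postn, Cilp, Nox4, Comp, Col8a1, Ltbp2 and Mfap4. They came from a single-nucleus RNA series of 4 mouse heart libraries prepared with BD Rhapsody, which captures single nuclei in small wells and marks their transcripts by barcode, with a molecular tag (UMI) that counts each transcript once. The cKO libraries were labelled PKP2fl/fl MCM cre/+ (genotype tag pkp2 cko, n = 2), and the control libraries MCM cre/+ (genotype tag wt, n = 2). Both groups therefore carried the Cre allele and received tamoxifen, and the labels name no promoter for MCM. Each library pooled the hearts of 2 mice, 1 male and 1 female, aged 8 weeks by their label and collected 2 weeks after tamoxifen. The library is the replicate, nuclei within it share their source, and p-values measure only the spread between these libraries.

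A nucleus was taken with at least 500 UMIs and at most 5% mitochondrial UMIs. Under 3% of its UMIs could come from 7 cardiomyocyte genes, and it could hold no UMI of Pecam1, Cdh5 or Csf1r. It needed at least 3 UMIs over 9 fibroblast genes and at least 2 UMIs over the 7 activation genes, more than over 6 resting genes (Scara5, Hsd11b1, Lvrn, Col6a6, Abca6 and Enpp2). These nuclei are called activation-rule nuclei below, because their label, activated Postn and Cilp fibroblasts, did not describe most of them in control hearts. The rule found 2091 nuclei among 41706 barcodes: 496 and 1105 in the cKO libraries, and 127 and 363 in the control libraries. Nuclei that met the fibroblast conditions with at least 2 resting UMIs, more than over the activation genes, are called resting nuclei and numbered 29 and 109 in the cKO libraries and 208 and 583 in the control libraries.

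Cardiac fibroblasts build and turn over the collagen scaffold between muscle cells. After injury they switch to an activated state in which they secrete matricellular proteins, such as periostin (Postn), that signal to cells rather than bear load. Pkp2 encodes plakophilin 2, a desmosome protein that couples cardiomyocytes, and its loss is a known cause of arrhythmogenic cardiomyopathy, a disease with fibrous and fatty replacement of muscle.

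Depth was uneven. The 4 libraries held 13491201 to 40536562 UMIs, and 48.8% to 53.8% of their barcodes were above the mitochondrial limit. The activation-rule nuclei gave 925532 and 2703239 UMIs in the cKO libraries, against 178808 and 684599 in the control libraries. Their median was 1576.5 and 2155 UMIs per nucleus in the cKO libraries and 1200 and 1707 in the control libraries. Libraries shared at most 2 cell labels with each other, none of them among these nuclei. Pkp2 itself measured 37.0 and 33.9 CPM in cKO and 68.7 and 50.2 CPM in control activation-rule nuclei, and did not pass (log2 fold change -0.67, edgeR adjusted p = 0.534). Which exons were removed is not stated in the labels, so these counts do not check the genotype. The cell type tag of every sample reads cardiomyocyte. The 15 cardiomyocyte markers together made up 3479 and 2777 CPM of the activation-rule nuclei in cKO and 4754 and 3101 CPM in control libraries. The rule limits cardiomyocyte UMIs, so a low sum in these nuclei does not bear on that tag.

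Sequences upstream of 5 genes are given because the results turn on them. Col8a1, Postn and Cilp are among the 7 activation genes of the rule. Ddah1 has the largest fold among genes with counts in every library, and Ccn1 belongs to the matricellular genes. Each run is the 250 bases before the RefSeq transcript start (GRCm38.p6), read 5′ to 3′ on the strand of the gene. Capitals mark matches, on either strand, to the letters CAGAC (SMAD), GGAATG (TEAD) or TGANTCA (AP-1), and no marked matches overlap.
Col8a1: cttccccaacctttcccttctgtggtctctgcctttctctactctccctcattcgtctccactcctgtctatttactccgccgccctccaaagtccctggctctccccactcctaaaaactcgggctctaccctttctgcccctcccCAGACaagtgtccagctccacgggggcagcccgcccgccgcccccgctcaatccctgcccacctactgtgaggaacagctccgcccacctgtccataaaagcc
Postn: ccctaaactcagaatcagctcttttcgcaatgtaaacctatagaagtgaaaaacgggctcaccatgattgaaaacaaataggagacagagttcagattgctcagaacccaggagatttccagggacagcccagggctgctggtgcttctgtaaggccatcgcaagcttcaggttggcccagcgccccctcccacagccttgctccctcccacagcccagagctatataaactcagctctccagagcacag
Cilp: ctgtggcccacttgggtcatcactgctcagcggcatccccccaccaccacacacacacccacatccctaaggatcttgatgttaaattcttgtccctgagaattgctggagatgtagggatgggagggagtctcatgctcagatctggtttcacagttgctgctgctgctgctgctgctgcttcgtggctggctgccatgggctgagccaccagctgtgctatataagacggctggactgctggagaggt
Ddah1: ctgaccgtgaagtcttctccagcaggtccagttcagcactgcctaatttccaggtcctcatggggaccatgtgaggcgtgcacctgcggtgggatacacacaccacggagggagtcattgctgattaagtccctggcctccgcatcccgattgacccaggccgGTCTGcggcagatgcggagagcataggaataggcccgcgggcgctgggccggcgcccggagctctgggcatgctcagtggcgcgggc
Ccn1: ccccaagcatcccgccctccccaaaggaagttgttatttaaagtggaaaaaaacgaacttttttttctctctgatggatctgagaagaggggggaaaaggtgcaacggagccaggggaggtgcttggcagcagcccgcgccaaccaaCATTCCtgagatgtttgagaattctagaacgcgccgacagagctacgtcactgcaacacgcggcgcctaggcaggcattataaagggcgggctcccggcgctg
The runs lie at chr16:57754738-57754987 (minus strand), chr3:54360857-54361106 (plus), chr9:65264930-65265179 (plus), chr3:145758442-145758691 (plus) and chr3:145649986-145650235 (minus), in the order printed. Col8a1 and Ddah1 held 1 CAGAC match each, which 42.2% of 32851 such RefSeq windows hold at least once. Ccn1 held 1 GGAATG match, read as its reverse complement, 103 bases before the start, and 12.6% of windows hold one. The letters TGANTCA, found in 6.75% of windows, were in none of the 5 runs, and Postn and Cilp held no match of any kind.

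Activation-rule nuclei made up most fibroblast nuclei in cKO hearts and a minority in control hearts. They were 77.1% (496 of 643, 95% exact binomial interval 73.7 to 80.3) and 75.5% (1105 of 1463, 73.2 to 77.7) of fibroblast nuclei in the cKO libraries. In the control libraries they were 25.9% (127 of 491, 22.0 to 30.0) and 28.1% (363 of 1293, 25.6 to 30.6). The groups did not overlap, and their means of 76.3% ± 1.14 in cKO and 27.0% ± 1.56 in control (SD, n = 2 each) differed by 3.12 in log2 odds (SE 0.10). A two-sided exact permutation test over libraries gave p = 0.333, the smallest that 2 against 2 libraries allow. Intervals here cover counting error only. Of all nuclei within the depth and mitochondrial limits they were 13.9% ± 1.71 in cKO and 4.94% ± 0.998 in control hearts. With each nucleus thinned to 1000 UMIs the shares of fibroblast nuclei were 75.2% in cKO and 26.6% in control. Nuclei were sorted, per the labels' protocols, and a share follows the sort as well as the tissue.

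The rule genes, given as a description because they chose the nuclei, were led by Col8a1 in both groups, most of all in control hearts. Col8a1, a short-chain collagen of basement membranes, had a UMI in 91.5% and 93.1% of cKO and in 87.4% and 93.4% of control activation-rule nuclei. Postn had one in 53.2% and 43.7% of cKO nuclei, against 18.1% and 12.7% of control nuclei. Cilp, a cartilage intermediate layer protein, had one in 42.7% and 40.3% of cKO nuclei, against 21.3% and 10.5% of control nuclei. Neither Postn nor Cilp was found in 34.9% and 40.5% of cKO nuclei, against 68.5% and 79.6% of control nuclei. Col8a1 was the only one of the 7 genes present in 7.66% and 9.95% of cKO nuclei, against 40.2% and 45.7% of control nuclei. Postn or Cilp was thus found in most cKO nuclei, 65.1% and 59.5%, but in 31.5% and 20.4% of control nuclei. Both genes together were found in 30.8% and 24.5% of cKO and 7.87% and 2.75% of control nuclei. Col8a1 had the most UMIs of the 7 genes in 56.7% and 65.8% of cKO and 70.9% and 79.9% of control nuclei.

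**Figure D1:**
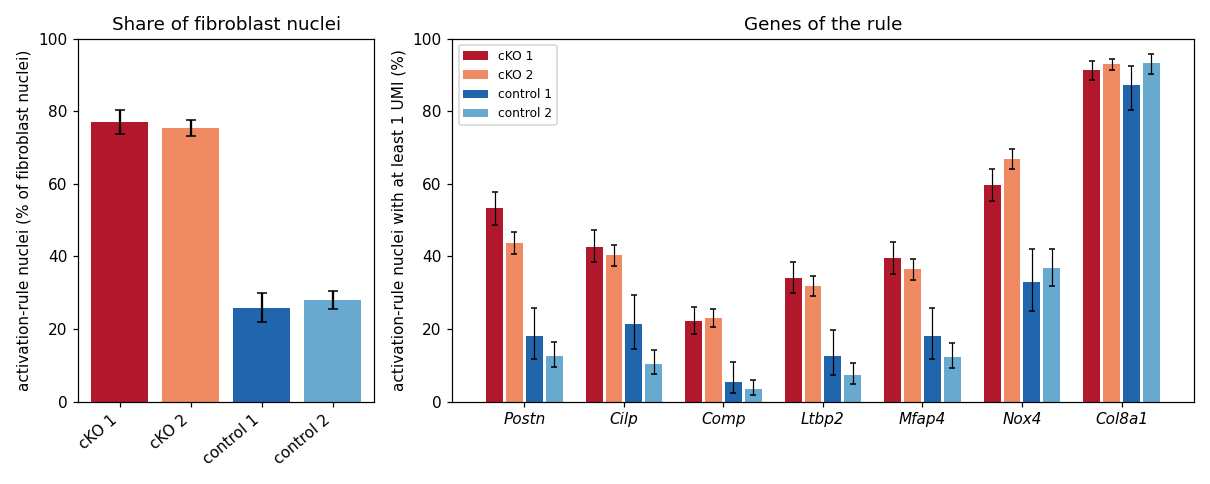
Left, activation-rule nuclei as a percentage of fibroblast nuclei in each library, and right, the percentage of activation-rule nuclei with at least 1 UMI of each rule gene; bars are libraries and error bars are 95% exact binomial intervals. Col8a1 is at 87.4% to 93.4% in all 4 libraries, while the other 6 genes are found in more nuclei of both cKO libraries than of either control library.

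Postn UMIs also appeared outside fibroblast nuclei, and their source was not tested. A Postn UMI was found in 9.17% and 6.73% of cKO and 6.63% and 4.94% of control endothelial nuclei, which the rule leaves out. Their median depths were 1586 and 2038 UMIs in cKO and 1261 and 1546.5 in control. After thinning to 1000 UMIs, Postn was in 46.4% and 34.2% of cKO and 14.6% and 6.38% of control activation-rule nuclei. The thinned endothelial shares were 5.82% and 1.43% in cKO and 3.53% and 2.25% in control libraries. Resting nuclei held a Col8a1 UMI in 51.7% and 47.7% of cKO and 43.3% and 52.8% of control nuclei, so 1 UMI of this gene does not separate the kinds. Just inside the rule, 28 and 75 cKO and 27 and 57 control nuclei had exactly 2 activation UMIs. Just outside it, 51 and 69 cKO and 32 and 67 control nuclei had 1 activation UMI over a smaller resting sum. The median was 10 and 13 activation UMIs per nucleus in cKO libraries and 5 in both control libraries.

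Levels of the rule genes followed the same order. Postn measured 1386 and 775 CPM in the cKO libraries and 224 and 126 CPM in the control libraries. Nox4, an NADPH oxidase that makes reactive oxygen, measured 1228 and 1476 CPM in cKO and 570 and 431 CPM in control nuclei. Comp, a thrombospondin family member that binds collagen, measured 274 and 212 CPM in cKO and 72.7 and 33.6 CPM in control nuclei. Ltbp2 and Mfap4, both proteins of microfibrils, measured 409 and 287 CPM and 414 and 302 CPM in cKO, against 123 and 80.3 CPM and 157 and 83.3 CPM in control nuclei. Col8a1 was the exception in size, at 4072 and 4350 CPM in cKO and 2752 and 2980 CPM in control nuclei.

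Against resting nuclei of the same library, the highest ratios in activation-rule nuclei included matricellular and cell cycle genes. This contrast rests on the rule and is a description with no test. Among 8606 genes outside the rule with at least 20 CPM, 863 were higher and 680 lower in all 4 libraries, and with the rule genes included these shares were 10.1% and 7.96% of 8635 genes. The largest mean ratios belonged to Thbs4, Ccn2, Tnc, Dio2, Meox1, Col12a1, Dkk3, Kcnma1, Thbs1, Mki67, Pamr1, Top2a, Gm6634, Sfrp2 and Ccn5. The resting sum of cKO 1 held 51495 UMIs, so ratios in that library rest on few resting UMIs. Thbs4, Tnc, Dio2, Col12a1, Thbs1, Pamr1, Top2a and Gm6634 had none there. Resting nuclei also had none of Thbs4, Tnc, Dio2, Col12a1 and Mki67 in cKO 2. They had none of Tnc, Dkk3, Mki67 and Top2a in control 1, and none of Col12a1 in control 2. The sizes of these ratios therefore depend on the count added to both kinds before division. Meox1, a homeobox transcription factor of activated cardiac fibroblasts in mouse, measured 159 and 104 CPM in activation-rule and 19.4 and 21.6 CPM in resting nuclei of the cKO libraries. In the control libraries Meox1 measured 89.5 and 36.5 CPM in activation-rule and 8.05 and 12.7 CPM in resting nuclei. Ccn2, a secreted matricellular protein and a target of YAP and TGF-beta signalling, measured 1082 and 681 CPM in activation-rule and 194 and 77.7 CPM in resting nuclei of the cKO libraries. In the control libraries Ccn2 measured 240 and 129 CPM in activation-rule and 68.4 and 34.3 CPM in resting nuclei. Among lists, 13 of 38 TGF-beta pathway genes were higher and 3 lower in all 4 libraries, as were 10 and 1 of 20 WNT genes, 8 and 2 of 19 matricellular genes, 7 and 1 of 21 collagens and 6 and 0 of 11 proliferation genes. Genes lower in all 4 were led by Myrip, Slc24a2, Kazn, Sncaip, Shank3, Aspg, Sox17, Vwf, Rgs17 and Fmn2. Sox17 and Vwf are endothelial genes, and 9 of 14 endothelial markers were lower and none higher in all 4 libraries.

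Within activation-rule nuclei, 10 of 18 matricellular genes were higher in cKO than in control hearts. Collagens outside the rule and the other lists had fewer calls. Counts were summed per library and tested with edgeR's quasi-likelihood test, with Benjamini-Hochberg adjustment over 10034 genes and a threshold of 0.05. Of these genes 206 passed (2.05%): 119 rose (1.19%) and 87 fell (0.867%), of which 109 and 84 lay outside the rule. The split between directions changed with the setting: 24 rose and 26 fell without control 2, 401 rose and 410 fell with a replicate block, 129 rose and 127 fell under 1% cardiomyocyte UMIs, and 16 rose and 36 fell with Col8a1 left out of the rule. The median log2 fold change over all genes was 0.01. At an unadjusted p under 0.05 there were 1108 genes, and in 40.5% of genes the 2 groups of libraries did not overlap. The number of calls changed with the libraries used: 92 genes were called without cKO 1 and 50 without control 2, whereas 330 were called without control 1. Of the 206 calls, 37 remained without control 2 and 81 without cKO 1. DESeq2 called 81 genes, 78 of them among the 206. With Col8a1 left out of the rule, 52 genes were called, 34 of them among the 206. Among the nuclei with no UMI of Postn or Cilp, 16 genes were called, all among the 206. Both of these last settings were chosen after seeing the data.

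The 12 largest rises included several genes of secreted proteins. Ddah1 (chr3:145758675-145894277), an enzyme that degrades the nitric oxide synthase inhibitor ADMA, measured 131 and 96.7 CPM in cKO and 5.73 and 4.70 CPM in control libraries. Ism1 (chr2:139678178-139758581), the secreted protein isthmin, measured 156 and 126 CPM in cKO and 11.5 and 6.27 CPM in control libraries. Both groups were far apart for either gene, with log2 fold changes of 4.47 (SE 0.51) for Ddah1 and 4.21 (SE 0.45) for Ism1 (edgeR adjusted p = 6.07e-05 for each). Bdnf, the neurotrophin, had 30 and 151 UMIs in cKO and 1 and 2 UMIs in control nuclei, a ratio of pooled CPM of 14.4 (95% counting interval 4.83 to 70.3). Ak5, an adenylate kinase, and P4ha3, a subunit of collagen prolyl 4-hydroxylase, had no UMI in either control library. With 3 UMIs set over the control group as the floor, Ak5 was at least 7.69-fold and P4ha3 at least 6.58-fold higher in cKO nuclei. Fzd1, a WNT receptor, had 28 and 39 UMIs in cKO and 0 and 1 in control nuclei (ratio 15.9, 95% counting interval 2.76 to 639). Gm42047 and Ngef, a guanine nucleotide exchange factor, rose on 2 control UMIs each, with ratios of 12.6 (3.41 to 105) and 11.7 (3.14 to 97.6). Without control 2 the calls on Ak5, P4ha3, Fzd1, Gm42047, Bdnf and Ngef were lost, with an adjusted p of up to 0.468, for Ngef. Those on P4ha3 and Gm42047 were lost without cKO 1 too, and that on Ngef without cKO 2.

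Fn1, Lox and Timp1 were also among the 12. Fn1 (chr1:71585520-71653200) encodes fibronectin, a glycoprotein on which collagen is assembled, and measured 380 and 195 CPM in cKO and 40.1 and 17.2 CPM in control libraries. Lox, a lysyl oxidase that crosslinks collagen and elastin, measured 115 and 94.3 CPM in cKO and 11.5 and 6.27 CPM in control libraries. Timp1, an inhibitor of metalloproteinases, measured 79.4 and 64.7 CPM in cKO and 5.73 and 7.84 CPM in control libraries. In all 3 genes both cKO libraries stood above both control libraries by several fold, and lack of overlap was a condition for the 12. Their log2 fold changes were 3.61 (SE 0.43), 3.78 (SE 0.48) and 3.26 (SE 0.49) for Fn1, Lox and Timp1, with edgeR adjusted p of 7.14e-05, 0.000131 and 0.000919. Of 72 named genes past the threshold, 13 kept their call with each library left out in turn: Adam12, Blnk, Ccn2, Col14a1, Ddah1, ENSMUSG00000121505, Fn1, Ism1, Kcnip1, Lox, Piezo2, Timp1 and Trhde. Col5a2, Eln, Igfbp7, Pmepa1 and Timp4 lost theirs whichever library was left out.

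**Figure D2:**
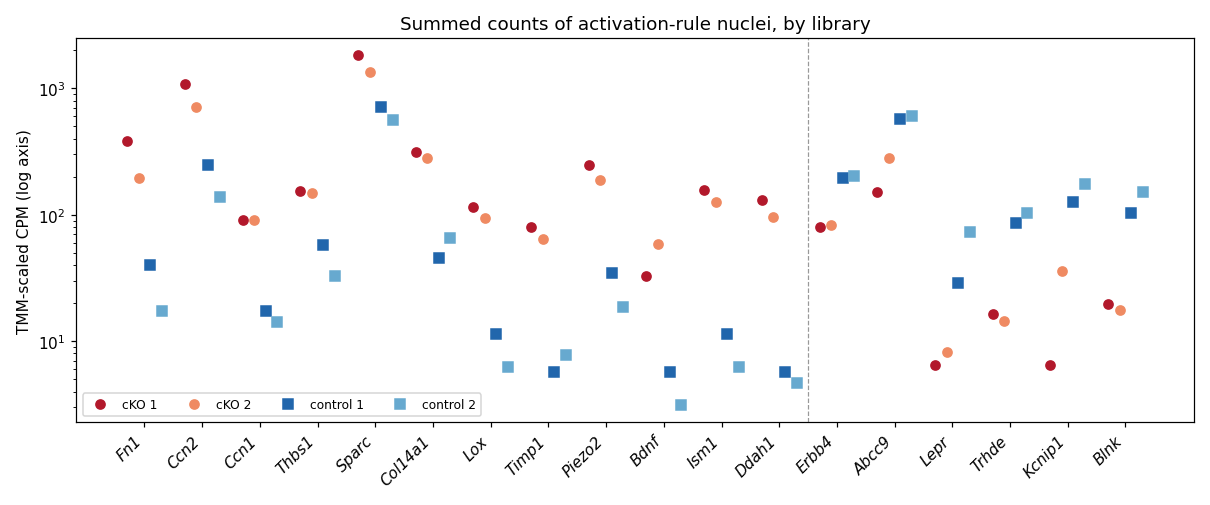
TMM-scaled CPM, on a log axis, of genes in the summed counts of activation-rule nuclei; each point is a library, circles cKO and squares control. Left of the dashed line are genes higher and right of it genes lower in cKO, and for each gene the circles and squares do not overlap, as in Ddah1 with 131 and 96.7 CPM in cKO against 5.73 and 4.70 CPM in control.

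Of 18 matricellular genes tested, 10 rose and none fell, with a median log2 fold change of 1.35 against 0.01 over all genes. By DESeq2 6 rose and none fell. Ccn2 measured 1089 and 717 CPM in cKO and 246 and 138 CPM in control libraries, which gave 2.33 as its log2 fold change (SE 0.32, edgeR adjusted p = 0.000285). Ccn1, its close relative, measured 90.3 and 91.2 CPM in cKO and 17.2 and 14.1 CPM in control libraries (log2 fold change 2.60, SE 0.41). In both genes the lowest cKO library was above the highest control library. Thbs1 and Thbs4, thrombospondins, rose by 1.92 and 1.72, and Sparc, a collagen-binding glycoprotein, by 1.33 on the log2 scale. Tnc (tenascin C), Cthrc1, Ccn5 and Mgp, an inhibitor of calcification, rose as well. The count of rises was 2 of 18 without control 2, Fn1 and Ccn2, and 5 without cKO 1. It was 0 of 15 among nuclei with no UMI of Postn or Cilp, where the median was 0.84, and 4 of 17 with Col8a1 left out of the rule.

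Few collagens outside the rule passed the threshold. Of 22 tested, 4 rose and none fell. In 16 the log2 fold change was above 0, and the median was 0.40 against 0.01 over all genes. Col1a1, Col1a2 and Col3a1 are fibroblast genes of the rule and are given as a description only. Col1a1 measured 2188 and 1326 CPM in cKO and 738 and 384 CPM in control nuclei. Levels of Col1a2 were 2482 and 1832 CPM in cKO and 1001 and 692 CPM in control nuclei. Those of Col3a1 were 3115 and 2070 CPM in cKO and 1063 and 573 CPM in control nuclei. Col14a1, a fibril-associated collagen, measured 314 and 281 CPM in cKO and 45.8 and 65.8 CPM in control libraries, which gave 2.31 as its log2 fold change (SE 0.29, edgeR adjusted p = 0.000131), and also passed among nuclei with no UMI of Postn or Cilp. Col8a2, the partner chain of Col8a1, rose by 3.06, Col12a1 by 2.00 and Col5a2, a chain of fibril-nucleating collagen V, by 1.12. The network collagens Col4a1 (793 and 646 CPM in cKO, 475 and 487 CPM in control, adjusted p = 0.38) and Col6a3 (461 and 435 CPM in cKO, 452 and 426 CPM in control, adjusted p = 0.985) did not pass. Among 31 genes of collagen processing, Lox, Loxl3, P4ha3 and P3h2 rose and Tll2, a tolloid-like protease of procollagen, fell. Without control 2 the counts were 1 of 22 collagens and 1 of 30 processing genes.

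Elastic fibre and proteoglycan genes followed with 4 rises among 22. Eln (elastin) measured 1273 and 1278 CPM in cKO and 544 and 596 CPM in control libraries, and Bgn (biglycan, a small proteoglycan) 705 and 562 CPM in cKO and 298 and 201 CPM in control libraries. Mfap5 and Fbn2, microfibril proteins, rose by 1.18 and 1.36, and Efemp1 (fibulin 3) fell by 1.74 on the log2 scale. Without control 2 the list had 1 rise, and without cKO 1 it had 1. Of 34 proteases and their inhibitors Timp1, Adam12, Adamts6 and Timp2 rose and Timp4 fell, of which Adam12 and Timp1 passed without control 2, and Timp2 was lost without cKO 1, cKO 2 or control 2. Adam12, a membrane metalloproteinase, measured 238 and 209 CPM in cKO and 63.0 and 65.8 CPM in control libraries (log2 fold change 1.78, SE 0.28, edgeR adjusted p = 0.00129).

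Few contractile genes passed. Acta2, the smooth muscle actin that marks myofibroblasts, measured 27.2 and 11.7 CPM in cKO and 11.5 and 15.7 CPM in control libraries, so the groups overlapped. Of 22 contractile and cytoskeletal genes 2 rose, Synpo (synaptopodin) by 1.23 and Actn1 (alpha-actinin 1) by 1.18, and none did with DESeq2's size factors in place of TMM. In the TGF-beta pathway, the main signal known to activate fibroblasts, 4 of 39 genes rose with a median of 0.17. Among them were Fstl1, a secreted BMP antagonist in mouse, and Pmepa1 and Smad6, feedback inhibitors. The ligands did not pass: Tgfb1 measured 40.2 and 58.1 CPM in cKO and 22.9 and 39.2 CPM in control (adjusted p = 0.71), Tgfb2 59.8 and 93.9 CPM in cKO and 109 and 97.2 CPM in control (adjusted p = 0.781), and Tgfb3 150 and 131 CPM in cKO and 126 and 61.1 CPM in control (adjusted p = 0.322). Without control 2 no gene of either list passed, nor did any without cKO 1.

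Secreted WNT inhibitors were among the rises. Of 21 WNT genes Dkk3, Sfrp1, Sfrp2 and Fzd1 rose and none fell. Sfrp2, a decoy for WNT ligands, measured 173 and 106 CPM in cKO and 63.0 and 7.84 CPM in control libraries, which differ widely from each other. Dkk3 measured 147 and 133 CPM in cKO and 40.1 and 28.2 CPM in control libraries, or 2.14 higher on the log2 scale (SE 0.34, edgeR adjusted p = 0.00128). All 4 calls were lost without control 2.

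Piezo2, a mechanically gated ion channel, led the 34 mechanosensing and integrin genes. It measured 246 and 188 CPM in cKO and 34.4 and 18.8 CPM in control libraries, or 3.23 higher on the log2 scale (SE 0.36, edgeR adjusted p = 6.07e-05), and passed with each library left out. Itga11, a collagen receptor, rose by 1.34 and Itga8, a receptor for Arg-Gly-Asp ligands, fell by 1.76. Of 45 transcription factors Runx1 rose by 1.40, Nr4a1 by 1.87 and Bnc2 by 1.06, and Tshz2 fell by 1.05. DESeq2 called Tshz2 alone of this list. Meox1, high against resting nuclei, measured 160 and 109 CPM in cKO and 91.6 and 39.2 CPM in control libraries and did not pass (adjusted p = 0.078). Without control 2 only Piezo2 of the integrin list and 1 transcription factor passed.

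Signals to other cells and early response genes gave few calls. Of 38 growth factors and receptors, Bdnf, Igfbp7 and Igfbp6 rose and Erbb4, a neuregulin receptor, fell, at 80.5 and 83.0 CPM in cKO and 195 and 202 CPM in control libraries (log2 fold change -1.28, SE 0.26, edgeR adjusted p = 0.00866), a call lost without cKO 1, cKO 2 or control 2. Of 25 cytokine and inflammatory genes, Ptgs2, the prostaglandin synthase COX-2, rose on 23 and 100 UMIs in cKO against 0 and 3 in control nuclei (ratio 9.76, 95% counting interval 3.26 to 48.0). Cxcl1, a neutrophil chemokine, measured 20.7 and 81.5 CPM in cKO and 11.5 and 9.40 CPM in control libraries and did not pass (adjusted p = 0.0797). Of 13 immediate early genes Egr1 and Nr4a1 passed, and all 13 fold changes were above 0, with a median of 1.15. Egr1, a zinc finger factor induced within minutes by growth signals and by tissue handling, measured 63.1 and 122 CPM in cKO and 40.1 and 25.1 CPM in control libraries. None of 16 proliferation genes passed by edgeR or DESeq2 (5 at an unadjusted p under 0.05 by edgeR), and Top2a measured 70.7 and 37.8 CPM in cKO and 28.6 and 21.9 CPM in control libraries (adjusted p = 0.289). None of 20 interferon response genes passed by edgeR or DESeq2, and 0 had an unadjusted p under 0.05 by edgeR. Of 34 guidance and adhesion genes Unc5b, Sema3d and Plxna4 rose and Robo2 fell. DESeq2 called none of the cytokine, immediate early or guidance genes. Of 14 glucocorticoid response genes Mt2, a metallothionein, rose and Zbtb16 fell. Without control 2 none of the growth factor, cytokine, immediate early, guidance or glucocorticoid genes passed.

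**Figure D3:**
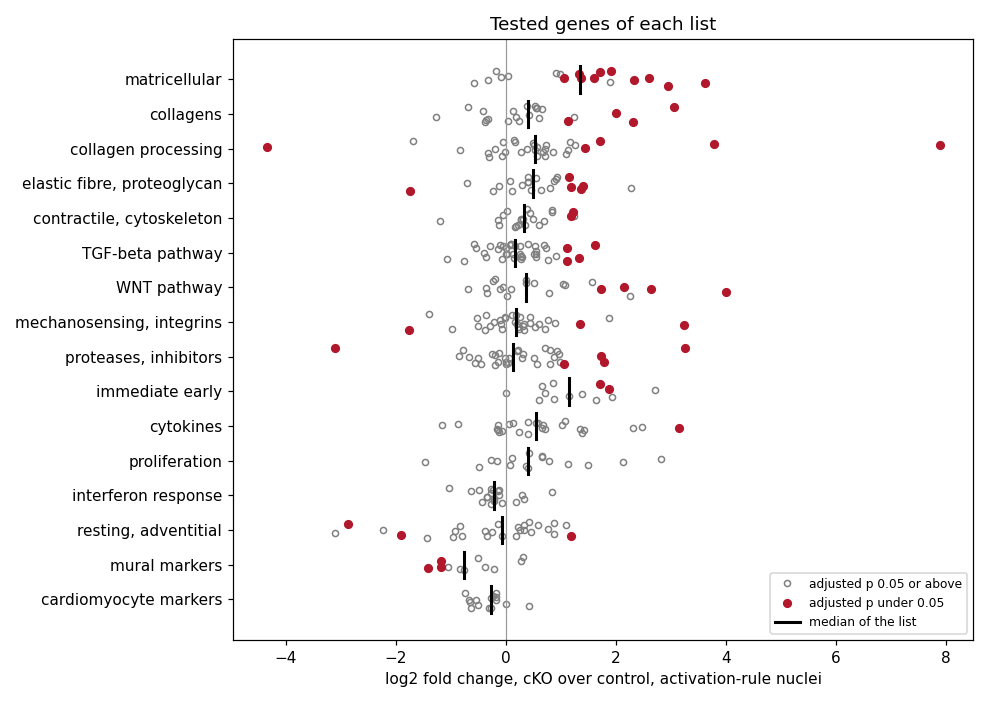
Log2 fold change, cKO over control, of the tested genes of 16 lists in activation-rule nuclei; red points passed an edgeR adjusted p of 0.05, the other points did not, and black bars are list medians. The matricellular list has its median at 1.35 and the immediate early list at 1.15, while the mural markers have theirs at -0.76; the point near 8 is P4ha3, which had no control UMI, so its place depends on the prior count.

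The falls were led by genes of varied function. Blnk, an adaptor protein best known in B cells, measured 19.6 and 17.5 CPM in cKO and 103 and 152 CPM in control libraries, a difference of -2.87 on the log2 scale (SE 0.33, edgeR adjusted p = 6.07e-05). Trhde, an ectoenzyme that degrades thyrotropin-releasing hormone, measured 16.3 and 14.4 CPM in cKO and 85.9 and 103 CPM in control libraries. Kcnip1, a subunit of potassium channels, measured 6.53 and 35.9 CPM in cKO and 126 and 176 CPM in control libraries. Each of these had both cKO libraries below both control libraries, which was a condition for being named among the 12 largest falls. Lepr, the leptin receptor, measured 6.53 and 8.18 CPM in cKO and 28.6 and 73.7 CPM in control libraries (log2 fold change -2.93, SE 0.47), and lost its call without control 2. Tll2 had 0 and 7 UMIs in cKO and 4 and 32 in control nuclei. The others of the 12 largest falls were Smim41, Timp4, BE692007, Apba2, Fat3, Wdfy4 and the unnamed ENSMUSG00000121505. Of these, Timp4 lost its call whichever library was left out, Smim41 without cKO 1 or control 1, Wdfy4 without cKO 2 or control 1, Fat3 without cKO 1 or control 2, and BE692007 and Apba2 without control 2. Of 27 genes of resting and adventitial fibroblasts, Blnk and Opcml fell and Ly6a rose, with a median of -0.07. Pi16, an adventitial marker, measured 508 and 485 CPM in cKO and 332 and 166 CPM in control libraries and did not pass (adjusted p = 0.0561).

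Mural genes moved with the groups. The 12 markers of pericytes and smooth muscle summed to 771 and 940 CPM in cKO and 1683 and 1580 CPM in control activation-rule nuclei, and 3 of 11 tested fell, Abcc9 and Ano1 among them. Abcc9, a subunit of the pericyte potassium channel, measured 151 and 282 CPM in cKO and 573 and 602 CPM in control libraries (log2 fold change -1.42, SE 0.28, edgeR adjusted p = 0.00751), and none of the 3 passed without cKO 1. With every nucleus holding a UMI of Rgs5, Kcnj8, Abcc9, Notch3 or Myh11 left out, a setting chosen after seeing the data, 200 genes were called, 158 of them among the 206, and 10 of 18 matricellular genes rose. Endothelial markers summed to 2125 and 2146 CPM in cKO and 2377 and 2330 CPM in control nuclei, and none of 14 passed by edgeR or DESeq2 (0 at an unadjusted p under 0.05 by edgeR). None of 15 cardiomyocyte or 10 macrophage markers passed by edgeR or DESeq2, with 3 and 5 at an unadjusted p under 0.05 by edgeR. Of 11 epicardial markers 9 and 9 were detected in cKO and 1 and 4 in control nuclei, summing to 22.7 and 23.3 CPM in cKO and 5.59 and 20.4 CPM in control, with the keratins Krt8 and Krt19 at 0 in all 4 libraries. Of 8 adipocyte markers 6 and 4 were detected in cKO and 4 and 4 in control nuclei, summing to 1308 and 1696 CPM in cKO and 1717 and 2304 CPM in control, with Adipoq and Cidec at 0 in all 4 libraries. The part of mural RNA in the falls of genes outside its list was not tested.

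In resting nuclei few genes passed. Of 5238 tested, 9 rose (0.172%) and none fell (173 lower at an unadjusted p under 0.05), by edgeR with the same settings. Among them were C3, Cacnb4, Clu, Egr1, Plcb1, Plxna4, Shroom3 and Thsd4, and DESeq2 called none (152 genes at an unadjusted p under 0.05). C3, a complement component made by fibroblasts, measured 341 and 434 CPM in cKO and 117 and 99.8 CPM in control resting nuclei. The resting sums held 51495 and 231715 UMIs in cKO and 248373 and 1021300 in control libraries. Resting counts of calls were 33 and 64 without cKO 1 and cKO 2, and 4 without either control library. Cardiomyocyte markers summed to 7729 and 4018 CPM in cKO and 3004 and 3158 CPM in control resting nuclei, and mural markers to 680 and 1700 CPM in cKO and 821 and 569 CPM in control. With nuclei holding mural UMIs left out, a setting chosen after seeing the data, edgeR called 0 resting genes (250 at an unadjusted p under 0.05).

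The difference between the cKO effect in activation-rule and in resting nuclei was tested in 1 edgeR model with library as a block. Of 9074 genes 94 passed (1.04%): 26 had a higher (0.287%) and 68 a lower effect (0.749%) in activation-rule nuclei, of which 21 and 62 lay outside the rule. The higher ones were led by Naa80, Ddah1, Ism1, Slc4a7, Fn1 and Dclk1. Fn1 measured 388 and 199 CPM in cKO and 40.8 and 17.5 CPM in control activation-rule nuclei, and 94.6 and 36.6 CPM in cKO and 47.0 and 30.2 CPM in control resting nuclei. Its effect was larger by 2.86 on the log2 scale in activation-rule nuclei (SE 0.60, edgeR adjusted p = 0.000665). Fn1 had 5 and 8 UMIs in cKO and 11 and 28 in control resting nuclei, so this difference rests on few resting counts. Ddah1 had 1 and 0 UMIs in cKO and 2 and 10 UMIs in control resting nuclei, and Ism1 0 and 3 in cKO and 5 and 6 in control, so their differences of 5.77 (SE 1.29) and 3.96 (SE 1.05) rest on few resting counts. Col5a2, Eln, Mfap5, Fstl1, Pmepa1 and Bnc2 had larger effects in activation-rule nuclei too, by 1.01 to 1.83. Those with the largest negative differences included Kcnk3, Lrrc3b, Ano1, Cacnb4 and Mdga2, of which Ano1 is on the mural list. Some of these rest on few resting counts too. Kcnk3 had 6 and 19 UMIs in cKO and 6 and 13 in control resting nuclei. Lrrc3b had 7 and 6 in cKO and 0 and 13 in control, and Mdga2 had 1 and 39 in cKO. Ano1 measured 53.3 and 57.3 CPM in cKO and 117 and 130 CPM in control activation-rule nuclei, against 56.8 and 160 CPM in cKO and 55.5 and 29.1 CPM in control resting nuclei. The mural markers summed to 680 and 1700 CPM in cKO and 821 and 569 CPM in control resting nuclei. Without the library block 2 genes passed, Ano1 and Cacnb4, and the other genes named here, Fn1, Ddah1 and Ism1 included, did not. Without control 1 the count was 5 genes, without control 2 it was 25, and with mural UMIs left out it was 16.

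The cKO nuclei were divided by their UMIs of Postn and Cilp, which is a description since both genes chose the nuclei. Nuclei with both genes numbered 153 and 271, with Postn alone 111 and 212, with Cilp alone 59 and 174, and with neither 173 and 448 in cKO 1 and cKO 2. Those with both were the deepest, at median depths of 2019 and 2668 UMIs, against 1323 and 1870.5 UMIs for those with neither. Tnc measured 217 and 106 CPM in Postn-only and 0 and 7.66 CPM in Cilp-only nuclei, and Fn1 516 and 250 CPM in Postn-only and 102 and 123 CPM in Cilp-only nuclei. Diaph3 and Top2a, genes of dividing cells, were also higher with Postn, as were Mdga2, Ano1, Pde8b, Gjc1 and ENSMUSG00000140548. Ano1 measured 86.0 and 110 CPM in Postn-only and 0 and 20.4 CPM in Cilp-only cKO nuclei, and 506 and 414 CPM in the 13 and 36 Postn-only nuclei of the control libraries. Ano1, a mural marker, was thus several times as high in Postn-only nuclei of control as of cKO hearts. These control sums held only 17797 and 74863 UMIs, and the other mural markers are not given here.

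In the cKO libraries Spon1 was lower in nuclei with Postn than in those without it. This gene of the secreted protein spondin 1 measured 615 and 791 CPM in Cilp-only and 271 and 364 CPM in Postn-only nuclei. It measured 612 and 882 CPM in nuclei with neither and 204 and 355 CPM in nuclei with both. In the control libraries it measured 306 and 458 CPM in Cilp-only and 169 and 775 CPM in Postn-only nuclei, so control 2 went the other way. Arsb, Prrt1, Golph3l, Ctnnal1, Zfp740, 9630002D21Rik and D630003M21Rik were the others of the 8 highest ratios of Cilp-only over Postn-only nuclei. Thbs4 was highest in nuclei with both, at 269 and 276 CPM, against 67.9 and 21.6 CPM with Postn alone, 102 and 71.5 CPM with Cilp alone and 24.0 and 9.64 CPM with neither. Against nuclei with neither, those with both were higher in both cKO libraries for 11 of 16 matricellular genes, 13 of 17 collagens and 13 of 16 elastic fibre and proteoglycan genes, and lower for 7 of 7 mural markers. Over all 4792 genes of at least 50 CPM, 1352 were higher and 1677 lower in both cKO libraries.

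**Figure D4:**
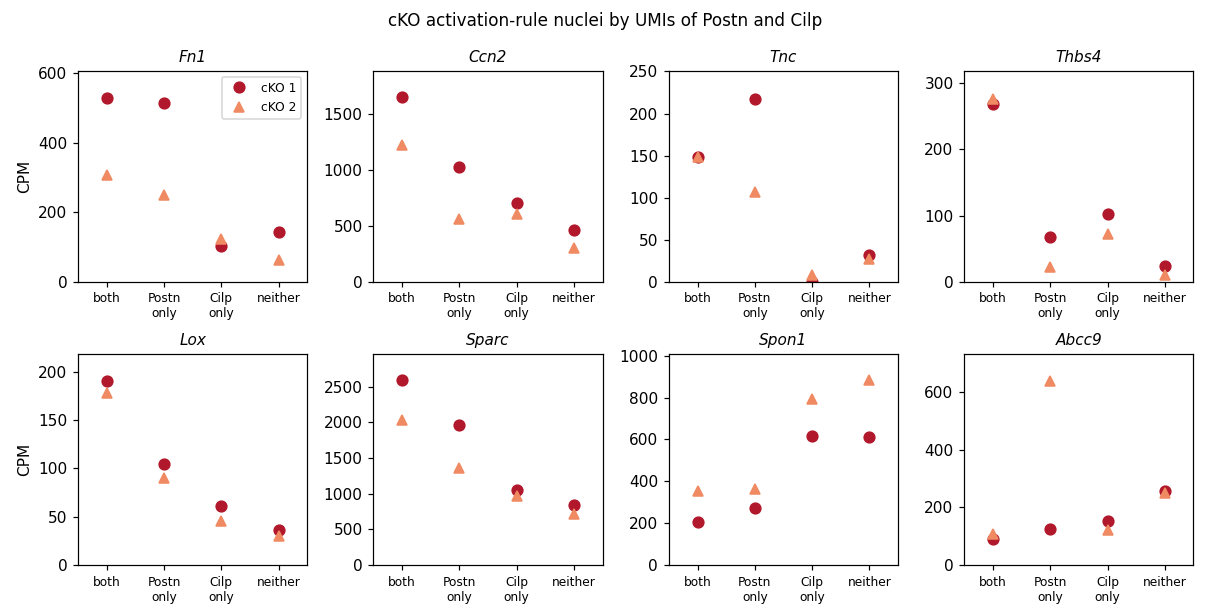
CPM of 8 genes in cKO activation-rule nuclei with UMIs of both Postn and Cilp, of Postn only, of Cilp only and of neither; each point is a cKO library. Tnc is at 217 and 106 CPM with Postn only and at 0 and 7.66 CPM with Cilp only, whereas Spon1 is higher with Cilp only and with neither.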

How the data were processed

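The deposited values were raw UMI counts (whole numbers) of each gene in each nucleus, for 44628 gene IDs and 4 libraries. Per the submitters' processing notes the build was mm10; aligner, counting software and treatment of intronic reads are not stated in the labels. Counts were summed over the chosen nuclei of each library, since the library and not the nucleus is the replicate. Sums were tested with edgeR 4.0.16 in R 4.3.3 (TMM, filterByExpr, robust quasi-likelihood, Benjamini-Hochberg over all genes tested, threshold 0.05), with 2 libraries a group and no replicate block. CPM of the tests are TMM-scaled; those of rule genes, of activation-rule against resting nuclei and of Postn and Cilp kinds are plain. DESeq2 1.42.0 and other filters were alternatives. Scrublet's own threshold marked 0.0257%, 13.5%, 0% and 0.0311% of nuclei, so no doublets were removed, and removal of the top 6% was an alternative. On simulated counts for activation-rule nuclei (10034 genes), 35.4% of 2-fold and 94.9% of 4-fold changes were recovered. For resting nuclei 24.0% of 2-fold and 89.6% of 4-fold changes were recovered. For the difference of effects 7% of 2-fold and 64% of 4-fold changes were recovered. The least abundant genes were given no change in these simulations, so the shares do not cover them. Simulated counts had a spread that followed a trend over genes, with none particular to a gene and no effect shared within a library. Named genes were the 12 largest changes each way outside the rule, of at least 20 CPM in 1 group without overlap, and list members past the threshold. Others, such as Acta2, Tgfb1 and Pi16, were named as list members that did not pass. The nuclei, lists and tests were chosen with earlier results of these data known. Some genes that met these rules are not reported here, though counts over lists and over all genes include them.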

Additional observations from a re-analysis of the deposited data

Results flagged for a closer look

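For 19 named genes the cKO effect differed between activation-rule and resting nuclei by edgeR's test of that difference, with values on the log2 scale, activation-rule minus resting. The difference was positive for Naa80 (8.62), Ddah1 (5.77), Ism1 (3.96), Slc4a7 (3.58), Fn1 (2.86), Dclk1 (1.97), Bnc2 (1.83), Pmepa1 (1.27), Eln (1.08), Fstl1 (1.05), Col5a2 (1.01) and Mfap5 (1.01). It was negative for Kcnk3 (-3.28), Lrrc3b (-3.27), Ano1 (-3.00), Cacnb4 (-2.88), Mdga2 (-2.73), Abcc9 (-2.15) and Erbb4 (-1.65). Naa80 had 0 and 0 UMIs in cKO and 9 and 19 UMIs in control resting nuclei, and Slc4a7 0 and 2 in cKO and 9 and 48 in control resting nuclei, so their sizes depend on the prior count. Dclk1 measured 310 and 382 CPM in cKO and 111 and 321 CPM in control activation-rule nuclei. In resting nuclei it measured 75.7 and 110 CPM in cKO, on 4 and 24 UMIs, and 209 and 288 CPM in control. Ano1 and Abcc9 are mural markers, and the part of mural RNA in their differences was not tested.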

How the results depend on the processing

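The count of genes past the threshold in activation-rule nuclei, 206, was 811 with the replicate block, 81 with DESeq2, 130 with at least 1000 UMIs, 1 with at most 1% mitochondrial UMIs, 52 with Col8a1 left out of the rule, 16 without nuclei holding Postn or Cilp UMIs, and 50 to 330 with 1 library left out. The replicate numbers do not establish pairs: deviations of the libraries numbered 1 correlated at 0.314 over 10034 genes, with only 2 pairs. In resting nuclei the count, 9, was 64 with the replicate block, 0 with DESeq2, 5 with at least 1000 UMIs, 4 under 1% cardiomyocyte UMIs, 1 with Col8a1 left out, 0 without mural UMIs and 4 to 64 with 1 library left out. For the difference of effects it was 94, against 46 with no filter, 2 with no replicate block, 49 under 1% cardiomyocyte UMIs, 16 without mural UMIs and 5 to 100 with 1 library left out. The log2 odds of the share of fibroblast nuclei, 3.12, were 2.40 at 1% mitochondrial UMIs, 3.27 under 1% cardiomyocyte UMIs, 4.14 without Col8a1 and 3.72 without mural UMIs, and 3.04 to 3.20 with 1 library left out. For the share of all nuclei, 1.65, they were 2.09 at 1% mitochondrial UMIs, 3.11 without Col8a1, 1.92 after thinning and 1.43 to 1.86 with 1 library left out. Of the genes named, signs reversed for Abcc9 (0.90) at 1% mitochondrial UMIs, and for Opcml (0.10) and Ano1 (0.066) without Postn or Cilp UMIs; the cause was not tested. The 1% mitochondrial limit could not be fitted for resting nuclei and the difference, since no resting nucleus was left in cKO 1. Settings on Col8a1, mural UMIs and Postn or Cilp were chosen after seeing the data.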
